A study of Saccharomyces cerevisiae with 2 samples.

Results

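Ribonucleotide reductase and the proteins that regulate it are described here by 10 genes of budding yeast (Saccharomyces cerevisiae): RNR1, RNR2, RNR3, RNR4, HUG1, SML1, DUN1, RFX1, WTM1 and DIF1. The genes were chosen by their symbol in the annotation of the array, and they are 10 of the 5656 genes that had a probe set assigned to a single symbol. Each of the 10 had exactly 1 such probe set, and 0 probe sets listed a member together with another gene. RNA from 2 replicate cultures of 1 strain was hybridised, each to 1 Affymetrix array. In the histone H3 of this strain (H3 K4,36,79R), arginine replaced lysine at residues 4, 36 and 79. Its wild-type H3 was made only in galactose, and the cells were collected 18 hours after a move to glucose, which shut that gene off, at an OD600 between 0.5 and 0.7. Both cultures had the same genotype, medium and time. The study's wild-type cultures and its other times were not analysed here, so the values give signal levels in the mutant and the spread between its 2 arrays. They do not measure an effect of the mutation.

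Ribonucleotide reductase turns ribonucleotides into the deoxyribonucleotides from which DNA is made, and its activity sets the size of that pool. In yeast the large subunit, which binds the substrate and the allosteric effectors, is made from RNR1 or from its damage-inducible relative RNR3. The small subunit pairs Rnr2, which holds the iron and tyrosyl radical cofactor, with Rnr4, which helps to assemble it. When DNA is damaged or replication stalls, the kinases Mec1, Rad53 and Dun1 act in turn. Dun1 then marks the inhibitor Sml1 and the import factor Dif1 for destruction, and the repressor Rfx1 (also called Crt1) leaves the promoters it holds down. Methylation of lysine 79 of H3, 1 of the residues replaced in this strain, is known to help the checkpoint adaptor Rad9 bind chromatin. These are background facts and were not measured here.

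Signals are printed as deposited, in the arbitrary units of MAS5, a MAS5 signal being the summary of the probe pairs of a probe set. The median over the 9335 probe sets was 25.5 on replicate 1 and 25.7 on replicate 2, and the log2 signals of the arrays had a Pearson correlation of 0.983 across the 9290 probe sets above 0 on both, which are not independent replicates. The 2 probe sets that gave clear signal for the histone H3 genes HHT1 and HHT2 together read 1311 ± 70.2 and 113.2 ± 4.18 (SD, n = 2), and they cannot tell the mutant copy from another. Probe sets differ in how well they bind, so the signals of different genes are not compared as levels. Each member's difference between the arrays is given as log2 of replicate 2 over replicate 1. Beside it stands the SD of the same difference over all genes of a like signal, called its signal class, where 5 classes cover the range. With 1 array on each side no difference has a test. Every culture had 1 array, so a difference between cultures cannot be told apart from one of labelling or hybridisation.

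All 10 members gave signals well above background on each array. Background was read from 13 probe sets that should find no yeast RNA, made against mouse genes or against bacterial controls in the antisense direction, and their 95th percentile was 1.86 on replicate 1 and 1.69 on replicate 2. The dimmest member value, 20.4 for RNR3 on replicate 1, was 11.02 times it. The count says little about expression, because the same limit was passed by 96.3% of all 6504 single-symbol probe sets. Of the 10 members, 7 differed by less than 10% between the arrays. Most genes did too, as the median size of the difference over all 5656 was 1.08-fold. Of the members 1, RNR3, differed by more than 1.5-fold. Over all 5656 genes 2.16% passed 1.5-fold, and 0.684% did over the 4241 genes whose mean signal was 20 or more, as it was for all 10 members. The median size of the log2 difference was 0.07 for the members, 0.10 for those 4241 genes and 0.11 for all genes.

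**Figure D1:**
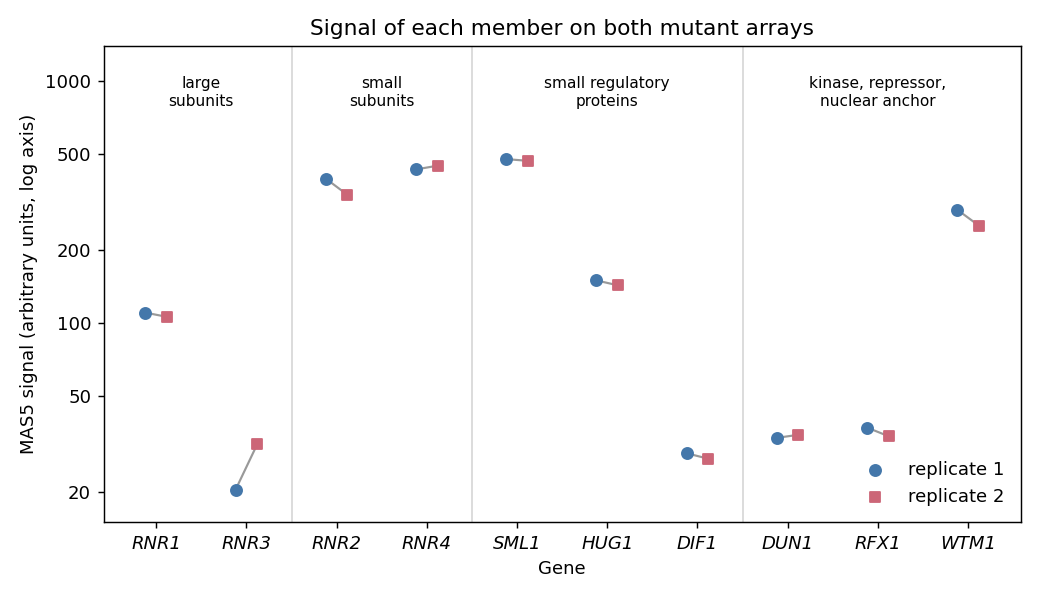
MAS5 signal of the 10 members (log axis, arbitrary units) on replicate 1 (circles) and replicate 2 (squares), with a line joining the values of a gene. RNR3 has the steepest line, from 20.4 to 31.5. Of the members 7 differ by less than 10% between the arrays, as do most of all genes (median 1.08-fold). Heights of different genes are not comparable as transcript levels.

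RNR1, which encodes the main large subunit and is expressed mostly around the start of DNA replication, read 110.4 on replicate 1 and 106.0 on replicate 2. Its mean was 108.2 ± 3.08 (SD, n = 2). The log2 difference of -0.06 lay inside the SD of 0.16 found over the 2309 genes of its signal class. Of those genes, 69.6% were at least as far apart as RNR1. The main large subunit gene thus read nearly the same in both cultures.

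RNR3, the damage-inducible large subunit gene, read 20.4 on replicate 1 and 31.5 on replicate 2, a mean of 25.99 ± 7.84 (SD, n = 2). The 2 cultures did not give the same reading for this gene: replicate 2 was 1.54-fold higher, a log2 difference of 0.62. That was 2.70 times the SD of 0.23 over the 1934 genes with signals of 8 to 32. In that class 23 genes, 1.19%, were at least as far apart in either direction. In signal units the step was 11.1, and 0.414% of the class had a step as large or larger. That share is no like comparison, because genes of the class dimmer than RNR3 need a larger fold for the same step.

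Among those 4241 brighter genes, 4 were more than 1.5-fold higher on replicate 2, 0.0943%, and 25 were more than 1.5-fold lower. Over all genes 59 were higher, 1.04%, and 63 lower. The direction was looked at because RNR3 lies in it. The 4 higher genes, named after their values were seen, were APM1 with a log2 difference of 0.65, RNR3, PHD1 with 0.60 and YOR072W-B with 0.59. RNR3 was second among them. APM1 had a mean signal of 20.03, at the edge of that limit. The probe set of RNR3 (4045_s_at) carries the suffix _s_at, which marks sets whose probes can match more than 1 transcript. The sources used here do not name a second transcript, so whether RNR1 or another RNA adds to the reading was not tested. The other 9 members have the suffix _at, without that mark. Of the 22 genes in RNR3's signal class read by an _s_at probe set, 1 differed by more than 1.5-fold, and that was RNR3. Among the 1836 genes with _at probe sets 27 did, 1.47%, so 22 genes are too few to compare the shares. The SD of the log2 difference was 0.27 over the 22, which include RNR3 itself, and 0.23 over the 1836. These SDs thus do not show whether _s_at probe sets spread more. The 100 probe sets closest in number to RNR3's had a median log2 difference of -0.05, in the direction opposite to RNR3. Whether nearness in number means nearness on the array was not tested.

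**Figure D2:**
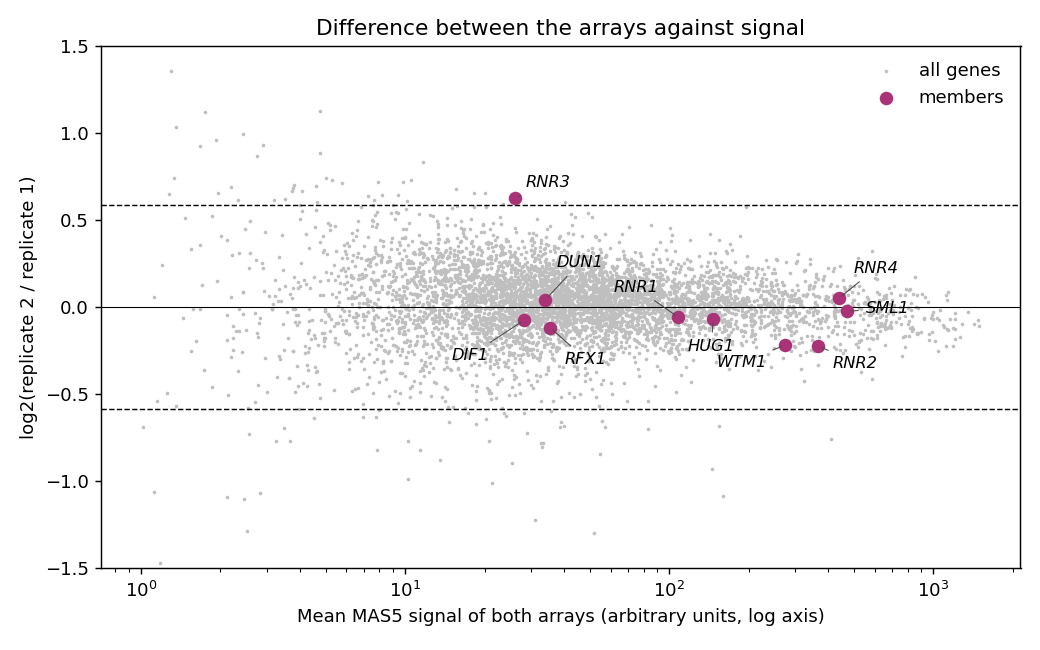
Log2 of replicate 2 over replicate 1 against mean MAS5 signal (log axis, arbitrary units), for 5614 genes in grey and the 10 members in purple. Dashed lines mark 1.5-fold. The 42 genes with a signal under 1 or a log2 difference beyond 1.5 are not drawn. RNR3 lies above the upper line at 0.62 and the other 9 members lie between -0.22 and 0.05.

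RNR2, whose product carries the radical cofactor, read 395.7 on replicate 1 and 339.0 on replicate 2, a mean of 367.3 ± 40.0 (SD, n = 2). The log2 difference was -0.22, or 1.55 times the SD of 0.14 over the 802 genes of its signal class. In that class 9.85% of genes were at least as far apart. RNR4, for the partner without a radical of its own, read 431.8 and 447.6, a mean of 439.7 ± 11.1. Its log2 difference of 0.05 was well inside the same SD. As deposited, the log2 differences of the 2 small subunit genes lay 0.27 apart, that of RNR4 being close to 0, which was not tested. The large subunit pair, RNR1 and RNR3, were 0.68 apart in the same measure, also untested.

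The 3 small regulatory proteins bind the enzyme or its subunits, and their genes differed little between the arrays. SML1, which encodes the inhibitor of the large subunit, read 476.5 on replicate 1 and 468.7 on replicate 2. Its mean was 472.6 ± 5.52 (SD, n = 2), and 84.5% of the genes in its signal class were at least as far apart. HUG1, a gene induced strongly by replication stress whose product binds the small subunit, read 150.1 and 143.2, a mean of 146.6 ± 4.91. DIF1, for the protein that brings the small subunit into the nucleus, read 28.9 and 27.5, a mean of 28.2 ± 1.04. The log2 differences were -0.02 for SML1, -0.07 for HUG1 and -0.08 for DIF1, each inside the SD of its signal class. All 3 were lower on replicate 2 as deposited, and SML1 turned to 0.01 after loess. HUG1 and SML1 are direct neighbours on chromosome XIII in the RefSeq order of assembly R64 (locus tags YML058W-A and YML058W). These genes are short, with coding lengths of 207 nucleotides for HUG1, 315 for SML1 and 402 for DIF1, against 2667 for RNR1.

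DUN1, the kinase that inactivates Sml1, Dif1 and Rfx1, read 33.5 on replicate 1 and 34.5 on replicate 2, a mean of 34.0 ± 0.706 (SD, n = 2). Its log2 difference was 0.04. RFX1, for the repressor of the damage-inducible reductase genes, read 37.0 and 34.03, a mean of 35.5 ± 2.07 and a log2 difference of -0.12. Both differences were inside the SD of 0.16 of their signal class, which they share with RNR1. WTM1, whose product holds the small subunit in the nucleus, read 294.4 and 252.9, a mean of 273.7 ± 29.4. Its log2 difference of -0.22 was 1.53 times the SD of its class, in which 10.2% of genes were at least as far apart. WTM1 and RNR2 were the other members, beside RNR3, to differ by more than 10%. Their differences from replicate 1 to replicate 2 were -14.1% and -14.3%. With a single difference per gene this likeness is no evidence of shared control.

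Rfx1 is known to repress RNR2, RNR3, RNR4, HUG1 and its own gene. Between the arrays these 5 genes did not differ in a common direction. RNR3 and RNR4 were higher on replicate 2, and RNR2, HUG1 and RFX1 were lower, with log2 differences from -0.22 to 0.62 and a median of -0.07. HUG1, also a damage-inducible target, differed by 1.05-fold where RNR3 differed by 1.54-fold, a contrast that was not tested. Over all 10 members 3 were higher and 7 lower on replicate 2 as deposited, beside 3191 and 2465 of all genes. The members' median was -0.06, and that of all genes was 0.03. After loess 4 were higher and 6 lower.

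**Figure D3:**
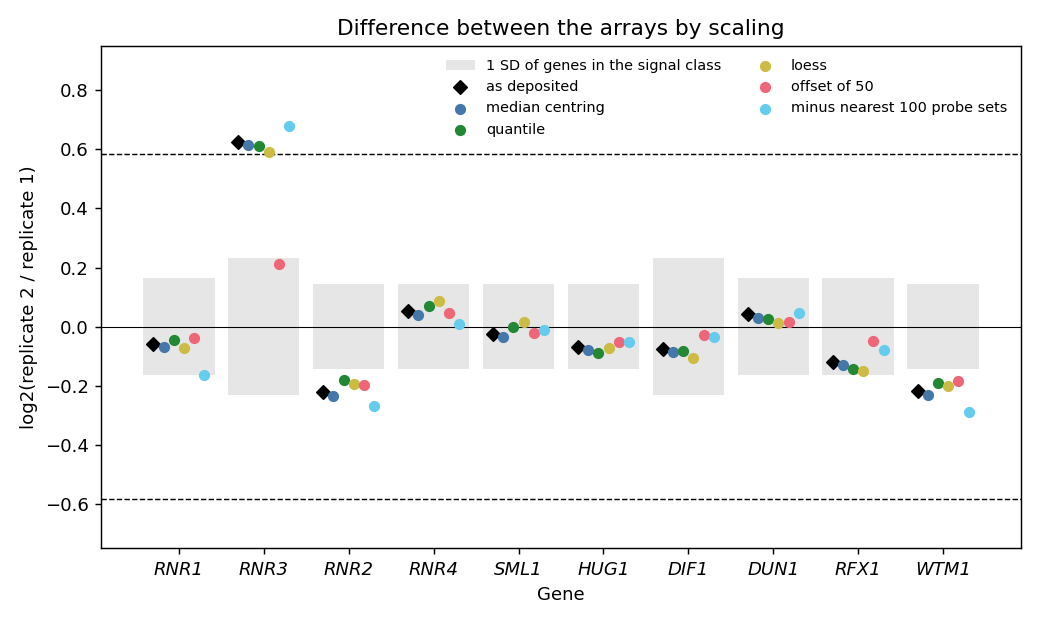
Log2 of replicate 2 over replicate 1 for each member, as deposited (diamonds) and under 5 other treatments of the signals (circles); grey bars span 1 SD, to either side of 0, of the differences of all genes in the same signal class, and dashed lines mark 1.5-fold. RNR3 stays above the line except with an offset of 50, where it is 0.21. RNR2 and WTM1 lie below the grey bar in all 6 and the other 7 lie within it or, for RNR1, at its edge.

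The wider pathway was read through 58 other genes in 8 lists, each by the brightest probe set assigned to its symbol alone. That of CDC21, like that of RNR3, has the suffix _s_at, and the other 57 have _at. Of the 58, 0 differed by more than 1.5-fold in either direction, beside 2.16% of all genes. A mean signal of at least 20 was found for 47 of the 58. Of all genes that bright 0.684% passed 1.5-fold, so a count of 0 is near that share. As deposited 36 of the 58 were higher and 22 lower on replicate 2, and their median was 0.05 on the log2 scale. Taking away the median of the 100 nearest probe sets made that 29 and 29. Over all genes 3191 were higher and 2465 lower as deposited.

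The 7 genes of the checkpoint upstream of Dun1 had log2 differences from -0.05 to 0.39, and 5 were higher on replicate 2 (4 with the nearest probe sets taken away). MEC1, the kinase at the top of the pathway, read 32.1 on replicate 1 and 36.4 on replicate 2 by the brightest of its 9 probe sets. Its log2 difference was 0.18 by that set and 0.04 by the mean of all 9. Its relative TEL1 read 62.9 and 68.1, and the effector kinase CHK1 read 46.6 and 52.8. LCD1, for the partner that brings Mec1 to damaged DNA (Ddc2), was the farthest apart, at 12.4 and 16.3. LCD1 is dim, and its log2 difference of 0.39 compares with an SD of 0.23 in its signal class.

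Of the 10 transcription regulators, 5 were higher and 5 lower on replicate 2 as deposited. CYC8 and TUP1 encode the corepressor that Rfx1 recruits. CYC8 read 48.8 on replicate 1 and 34.6 on replicate 2, and TUP1 read 79.7 and 84.1. The log2 difference of CYC8, -0.49, was the largest in size among the 58 genes, while that of TUP1 was 0.08. For CYC8 it was 3.0 times the SD of its signal class, where 1.21% of genes were at least as far apart. The same measures for RNR3 were 2.70 and 1.19%, so within its class CYC8 lay about as far out as RNR3. IXR1, a regulator of RNR1, read 50.3 and 46.0. CRT10, a further regulator of the reductase genes, read 64.1 and 65.97, and its small difference changed sign with the nearest probe sets taken away.

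Among the 5 genes for localisation and turnover, WTM2, the relative and chromosomal neighbour of WTM1, read 40.9 on replicate 1 and 38.1 on replicate 2. Its log2 difference of -0.10 ran the same way as that of WTM1, and the probe sets of the 2 genes carry neighbouring numbers (8341_at and 8342_at). RAD6 and MUB1, whose products act in the ubiquitination of Sml1, read 53.6 and 60.0, and 39.6 and 42.8. Of the 6 electron donors of the enzyme, 3 were higher and 3 lower as deposited. That became 4 and 2 after quantile normalization, and 2 and 4 with the nearest probe sets taken away, where GRX2 turned from 0.04 to -0.03. Thioredoxin gene TRX1 read 323.0 and 276.0, TRX2 read 363.8 and 396.4, and the glutaredoxin gene GRX2 read 290.7 and 298.8. The log2 differences of the 2 thioredoxin genes were -0.23 and 0.12, and that of TRX2 lay inside the SD of 0.14 of its signal class.

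The 4 genes for assembly of the iron cofactor, GRX3, GRX4, DRE2 and TAH18, were all higher on replicate 2. So were 3191 of all 5656 genes as deposited. The log2 differences of the 4 were 0.06 to 0.21 as deposited. Those of GRX4, DRE2 and TAH18 lay inside the SD of their signal classes. The sign held under each of the 6 treatments, all of them applied to the same 2 arrays. GRX3 read 123.8 on replicate 1 and 140.5 on replicate 2. RNR2, whose product receives this cofactor, lay in the other direction at -0.22, which was not tested. Among the 8 genes of nucleotide synthesis the differences stayed between -0.16 and 0.15. ADK1 read 354.03 and 361.03, a difference that changed sign with the nearest probe sets taken away, GUK1 read 286.1 and 274.6, and YNK1 read 261.2 and 274.0, all encoding kinases of nucleotides. DCD1, the deaminase that acts on dCMP, was the farthest apart in that list at 26.7 and 23.9.

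The 8 genes induced by DNA damage had log2 differences from -0.17 to 0.23 by their brightest probe sets. Of them 6 were higher on replicate 2 as deposited, and 5 after median centring, quantile normalization or loess. DDR48 read 813.2 on replicate 1 and 721.8 on replicate 2 by the brighter of its 2 probe sets. The other read 350.8 and 285.2. The mean over both made the log2 difference of DDR48 -0.24, outside that range. UBI4, a gene for ubiquitin, read 473.4 and 537.3. MAG1, for a DNA glycosylase, read 14.7 and 17.2, and RAD2, for a nuclease of excision repair, read 50.7 and 48.5. The highest of the 8 differences, 0.23 for MAG1, stands beside 0.62 for RNR3, a contrast that was not tested. By their brightest probe sets, the 10 genes expressed with RNR1 at the start of replication lay between -0.22 and 0.27. Their brightest were POL2, for the catalytic subunit of a replicative polymerase, at 154.3 and 148.6, POL30, for the sliding clamp, at 89.6 and 96.0, and RFA1, for a single-strand binding protein, at 92.01 and 85.98. MCD1, for a cohesin subunit, was the farthest apart at 13.9 and 16.8. POL2 has 9 probe sets, and the mean over them turned its log2 difference from -0.05 to 0.44, beyond that of MCD1. A probe set below background, at 0.0524 and 0.938, gave 4.16 in that mean, and the median over the 9 was 0.04.

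**Figure D4:**
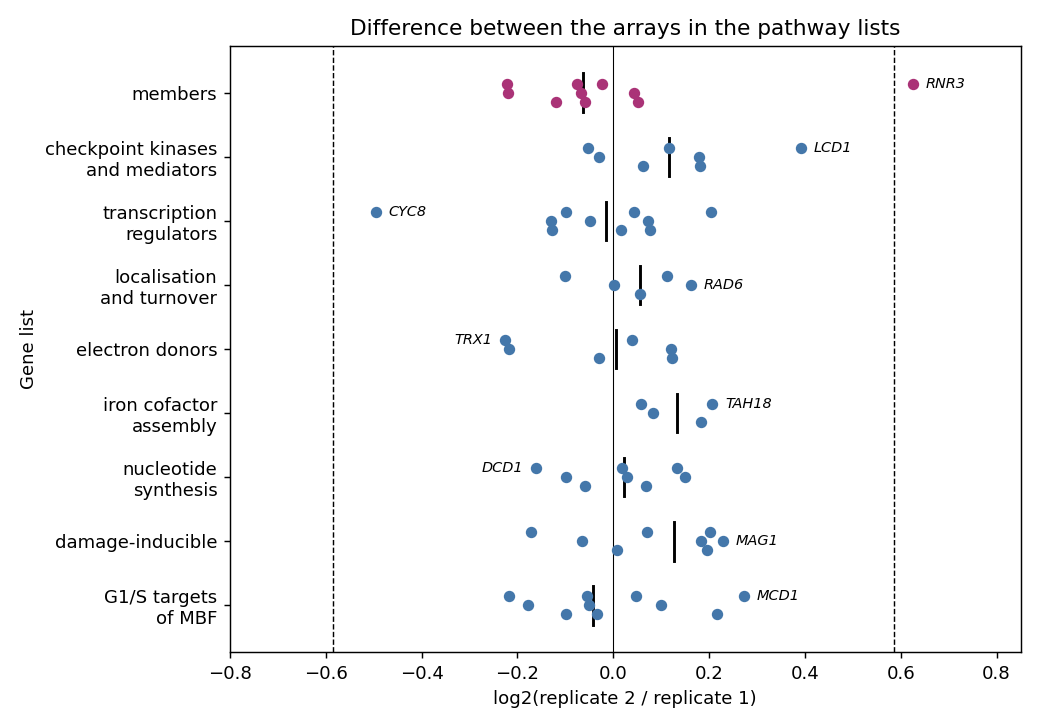
Log2 of replicate 2 over replicate 1 for the 10 members (purple) and the 58 measured pathway genes (blue), by list, as deposited. Black bars are list medians, dashed lines mark 1.5-fold, and the gene farthest from 0 in each list is named. RNR3 is the gene outside the dashed lines, and CYC8 at -0.49 comes next. Against the SD of its own signal class CYC8 is about as far out (3.0 times, 2.70 for RNR3).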

How the data were processed

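The deposited table holds an intensity on a linear scale for every probe set of each array. The authors computed it with MAS5, according to the submitters' processing notes. Which version, scaling target and background settings they used is not given in the sources used here. Detection calls were not used. About 20 µg of total RNA went into biotin-labelled cRNA for each array. The number of arrays, 2, limits the precision.

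Probe sets were named through the platform annotation, which can be old. Of the 9335, 6504 had 1 symbol and 328 had several. The 5656 genes all matched the RefSeq table of assembly R64 by gene identifier. For the 315 genes with several probe sets, the brightest by mean log2 signal stood for the gene. Signal classes were split at 8 and at 3 further 4-fold steps above it. No test was run, since there is 1 group, and no sequences or coordinates are given. Code for scaling was checked on simulated data with known changes, which tests the code and not the choice of setting. That check does not show how the settings, the offset among them, perform at the spread of these arrays. It has no bearing on the RNR3 difference. Python 3.11.15, pandas 2.3.3 and statsmodels 0.14.6 (loess, span 0.3) were used.

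Members, lists and settings were chosen with earlier results of these data known. One further gene of a pathway list was not analysed here, and counts are over genes with a value. The text names every member, the 3 brightest genes of each pathway list, the gene farthest apart in it and any past 1.5-fold.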

Additional observations from a re-analysis of the deposited data

How the results depend on the processing

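With 2 arrays of 1 condition, a difference between the arrays is spread and has no test. The count of members past 1.5-fold, 1, was 1 after median centring, quantile normalization, loess, averaging all probe sets of a gene, removal of the median of the 100 nearest probe set numbers, and with a mean signal of at least 20. It was 0 with an offset of 50, which shrinks the log2 differences of dim genes by construction, and RNR3 then had 0.21. It was also 0 among the 9 members with an _at probe set, a setting chosen after seeing the data that leaves RNR3 out. In the settings that keep RNR3 its difference ran from 0.21 to 0.68. Each member has 1 probe set, so averaging them, or taking the dimmest one, could not change a member's value. The members' median log2 difference, -0.06, ran from -0.07 to -0.03. SML1 changed sign after loess (0.01), and the other 9 kept their sign in each setting run. All 10 members were above the highest foreign probe set on both arrays, and above background without replicate 1 and without replicate 2. The count of pathway genes past 1.5-fold was 0 in each of the 8 settings. No paired analysis was possible because only 1 group was analysed.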
